A study of Mus musculus with 6 samples.

Results

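The Klr genes encode lectin-like receptors of natural killer (NK) cells and of some T and myeloid cells, and their transcripts were followed in endometriosis-like lesions of mice given vehicle or niclosamide. The members are all gene symbols starting with Klr, 33 of the 41786 symbols counted, and the family was picked with earlier results of these data known. Of these, 27 had enough reads to be tested, among 17364 tested genes. In 26 of the 27 the fitted log2 fold change of niclosamide over vehicle was above 0. Their median was 0.88, and the median of all tested genes was 0.02. No member reached a Benjamini-Hochberg adjusted p under 0.05 in edgeR's quasi-likelihood test, the threshold used here, and neither did any other tested gene (0%).

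NK receptors of this family act in opposing sets. Inhibitory members carry a tyrosine motif in their tail that recruits phosphatases, and activating members lack it and signal through adaptor proteins such as DAP10 and DAP12. Shared chains such as CD94 carry a partner to the surface. Many inhibitory members read MHC class I molecules on neighbouring cells, so that a cell which keeps its class I is spared. NK cells are abundant in the uterus.

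All mice were C57BL/6 females. Uterus of a 6-week-old donor with the genotype B6-GFP Positive was stitched to the abdominal lining of wild-type recipients aged 8 weeks and matched for estrous cycle. Dosing with vehicle or with niclosamide at 200 mg/kg body weight began 3 days later and was given daily, for 3 weeks by the labels. Recipients were examined in diestrus. By the labels' protocols, RNA was taken from the uterus-derived tissue after recipient tissue had been removed. Each group had 3 RNA-seq libraries. Vehicle 1 pooled 4 mice and the other 5 libraries were from 1 mouse each, so the vehicle spread joins a pool with single animals. The counts do not separate donor cells from recipient cells that entered the tissue. In such bulk tissue fewer cells of a type and less RNA per cell cannot be told apart.

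The 6 libraries held 27797121 to 34797000 counted reads. Of these, 4725, 8471 and 5430 fell on Klr genes with vehicle, and 11596, 15551 and 12341 with niclosamide (values are always in the order of libraries 1, 2 and 3). In CPM, the counts scaled to a common library size, the family summed to 172, 233 and 171 with vehicle and 394, 481 and 384 with niclosamide, without overlap. Other features of the libraries moved along the groups. The small nuclear RNA Rn7sk had 17.4 to 42.5 CPM with vehicle and 1.03 to 9.45 with niclosamide. The ribosomal RNA gene Rn18s-rs5 took 0.608% to 1.03% of the counts with vehicle and 0.189% to 0.610% with niclosamide, with a slight overlap. Whether these 2 RNAs differ by tissue or by library preparation was not tested. The mean of 5 smooth muscle markers was 9.78 to 10.37 log2 CPM with vehicle and 8.19 to 9.52 with niclosamide. Markers of uterine epithelium overlapped, at 5.77 to 6.95 and 4.50 to 6.76 log2 CPM, as did those of skeletal muscle, at 9.11 to 10.40 and 6.62 to 11.95. Skeletal muscle is not part of the uterus, so its markers point to recipient tissue left in the libraries, in unlike amounts. The part of these features in the Klr values was not tested.

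The files place 30 members on mouse chromosome 6 (build GRCm38). Of these, 28 lie in 1 cluster of 2638 kb between positions 128609227 and 131247723, known as the NK gene complex, and Klrg1 and Klrg2 lie elsewhere on the chromosome. The annotation also holds alternate scaffolds, on which 14 of the 30 have further exons. Klra12, Klra16 and Klra23 exist only on those scaffolds, and each had 0 counts in all 6 libraries, which allows up to 0.0824 to 0.109 CPM per library. That limit covers counting error only, and whether reads could align to those scaffolds was not tested. Levels per kilobase use the exon length on chromosome 6 alone.

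Several members are close copies of each other, so their counts are uncertain. Of 29 members with transcripts in GENCODE M21, 12 shared more than 10% of their stretches of 50 bases with another gene, and 6 did so for stretches of 100 bases. For Klrc1 the shared part was 38.6% at 50 bases and 14.6% at 100, mostly with Klrc2. For Klrb1b it was 27.2% and 22.3%, mostly with the gene model Gm44511. Among the Ly49 genes it was 33.1% and 14.4% for Klra8, 31.5% and 4.07% for Klra9 and 20.7% and 1.78% for Klra3. At 50 bases it was 12.3% for Klra7, 4.68% for Klra4 and 2.98% for Klra1. Klrd1, Klrk1, Klra2, Klra17 and Klrg1 shared none at either length. The read length behind the counts is not given in the sources used here.

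Promoters were examined because most members were higher together. RefSeq entries (GRCm38.p6) matched 23 members with 28 promoters, each from 250 bases before to 50 bases after a start site. Klri2 and Klrd1, which had the smallest p of the family, had no entry, and neither did Klrg1. The core motif of RUNX factors, TGTGGT on either strand, was found in 9 of the 28 (32.1%) and in 16.8% of 32851 mouse promoters of that length. The short T-box motif, TCACACC on either strand, was found in 1 of 28 (3.57%, in Klra1) and in 3.98% of all. Counted by gene, 8 of 23 members (34.8%) held the RUNX core, and no share by gene was computed for all promoters. The 2 Klrc2 windows overlap and hold the same sites. Klrc1, Klrc2 and Klrc3 are related copies, and the Klrb1a and Klrb1c promoters are alike around their sites. These promoters are therefore not independent. A match of letters is not a bound site. Shown 5′ to 3′ on the gene's strand are the promoters of the 4 members with the smallest p among those with an entry, with the RUNX core in capitals. They lie at chr6:129678924-129679223 (Klrc1, minus strand), chr6:129623815-129624114 (Klrk1, minus strand), chr6:129577963-129578262 (Klre1, plus strand, the upstream one of its promoters; the other, at chr6:129578036-129578335, held no match) and chr6:131247313-131247612 (Klra2, minus strand, no match).
Klrc1: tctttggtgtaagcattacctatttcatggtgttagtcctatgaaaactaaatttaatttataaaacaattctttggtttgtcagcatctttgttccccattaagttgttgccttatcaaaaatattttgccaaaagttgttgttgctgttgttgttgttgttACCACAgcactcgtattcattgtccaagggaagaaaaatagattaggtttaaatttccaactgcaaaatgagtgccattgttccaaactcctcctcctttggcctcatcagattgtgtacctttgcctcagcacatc
Klrk1: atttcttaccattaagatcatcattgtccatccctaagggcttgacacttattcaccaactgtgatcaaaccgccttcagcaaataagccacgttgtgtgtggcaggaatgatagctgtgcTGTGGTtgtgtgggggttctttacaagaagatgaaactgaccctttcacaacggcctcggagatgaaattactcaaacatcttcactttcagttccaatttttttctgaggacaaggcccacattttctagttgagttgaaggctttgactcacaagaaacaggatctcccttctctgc
Klre1: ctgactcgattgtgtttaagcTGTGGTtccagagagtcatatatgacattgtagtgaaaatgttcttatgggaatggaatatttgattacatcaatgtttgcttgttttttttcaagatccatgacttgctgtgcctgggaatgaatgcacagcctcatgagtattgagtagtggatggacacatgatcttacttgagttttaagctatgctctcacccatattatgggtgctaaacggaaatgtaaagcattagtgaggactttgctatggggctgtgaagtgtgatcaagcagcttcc
Klra2: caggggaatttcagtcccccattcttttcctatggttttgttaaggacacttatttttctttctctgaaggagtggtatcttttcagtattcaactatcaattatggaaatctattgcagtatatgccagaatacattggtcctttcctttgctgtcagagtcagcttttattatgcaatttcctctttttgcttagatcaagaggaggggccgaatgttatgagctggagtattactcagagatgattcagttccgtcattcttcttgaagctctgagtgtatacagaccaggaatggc
The core began 87 bases before the start site in Klrc1, where it reads as its reverse complement, 129 bases before it in Klrk1 and 229 bases before it in Klre1.

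Klrd1, which encodes the shared chain CD94, had the highest mean level of the family per kilobase of exon in both groups, though not in CPM. It had 25.8, 28.1 and 21.97 CPM with vehicle and 60.7, 82.8 and 49.1 with niclosamide. The lowest niclosamide library lay far above the highest vehicle library, with a log2 fold change of 1.34 ± 0.22 (SE), or 2.54-fold (edgeR quasi-likelihood, Benjamini-Hochberg adjusted p = 0.496). Klre1 encodes a chain that pairs with KLRI1 or KLRI2 and had 7.98, 10.1 and 6.22 CPM against 12.2, 18.2 and 19.1. Its groups did not overlap either (1.03 ± 0.27; adjusted p = 0.594). Here and below, a value with ± in parentheses after CPM values is the log2 fold change of niclosamide over vehicle with its SE. All niclosamide libraries lay above all vehicle libraries in 13 of the 27 tested members, and below them in 0. Among all tested genes these shares were 5.9% and 6.37%.

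**Figure D1:**
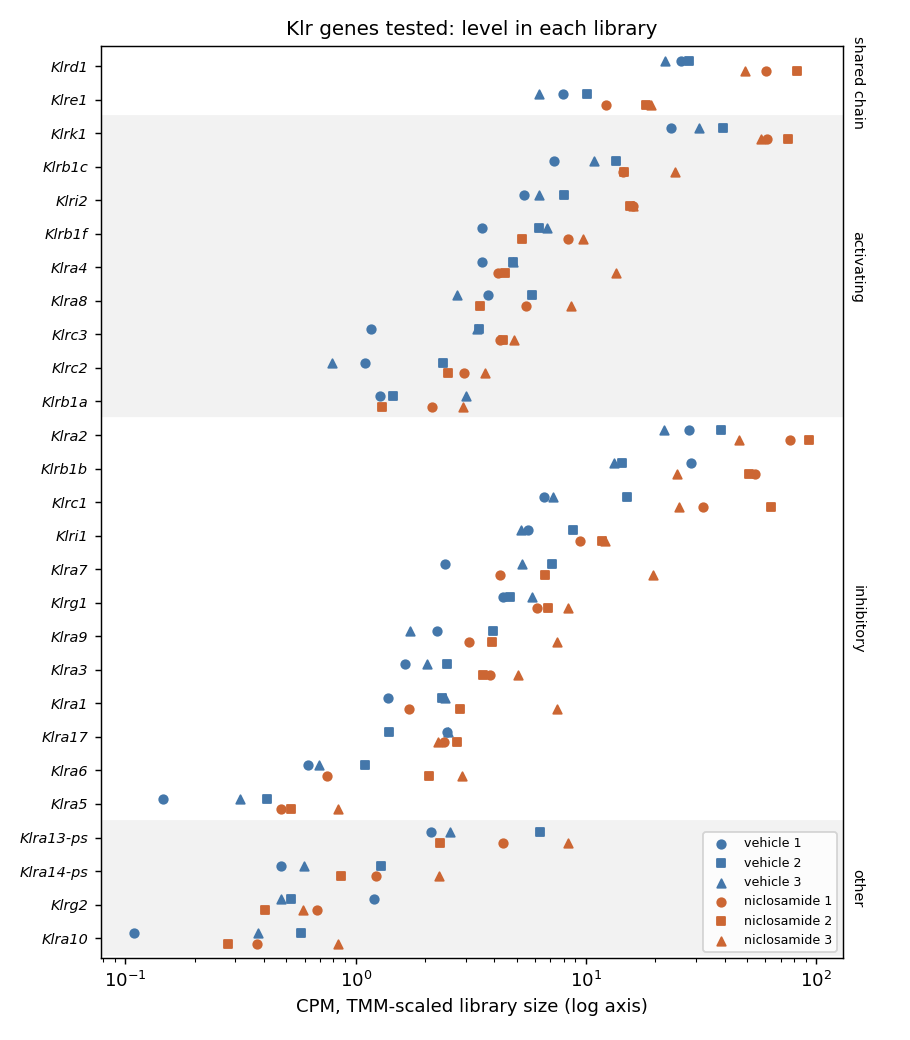
Level of each of the 27 tested Klr genes in each library, in CPM on a log axis, with genes in rows grouped by role and 1 mark per library of each group. In 13 genes, Klrd1, Klrk1 and Klrc1 among them, all niclosamide marks lie to the right of all vehicle marks.

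The NKG2 partners of CD94 were higher with niclosamide as well. Klrc1, which encodes the inhibitory NKG2A, had 6.60, 15.1 and 7.20 CPM with vehicle and 32.3, 63.7 and 25.4 with niclosamide. Its log2 fold change was the highest of the 27, 2.07 ± 0.48 (4.19-fold; adjusted p = 0.543), and niclosamide 2 stood above the rest of its group. Klrc2 encodes the activating NKG2C and had 1.09, 2.39 and 0.786 CPM against 2.96, 2.50 and 3.64 (1.08 ± 0.47). Klrc3, the gene of the activating NKG2E, had 1.17, 3.43 and 3.36 CPM against 4.21, 4.36 and 4.85 (0.75 ± 0.44). Neither overlapped between groups, although vehicle 2 came close to the niclosamide range in Klrc2.

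Per kilobase of exon, Klrc1 made up 68.7%, 67.1% and 61.3% of the summed Klrc1, Klrc2 and Klrc3 level with vehicle, and 78.0%, 88.3% and 69.9% with niclosamide. The lowest niclosamide share thus lay just above the highest vehicle share. The log2 ratio of Klrc2 to Klrc1 was -1.72, -1.83 and -2.29 with vehicle and -2.62, -3.83 and -1.98 with niclosamide, with overlap (exact permutation p = 0.2, two-sided, smallest possible p 0.1; adjusted p = 0.8 over 8 ratios). The mean difference was -0.86, and -0.35 without niclosamide 2, so a difference in change between these genes was not shown. The summed NKG2 level was 17.1% to 36.7% of the Klrd1 level with vehicle and 31.3% to 39.9% with niclosamide. These shares rest on the reads that tell the 3 Klrc genes apart. Klrc1 and Klrc3 also have exons on alternate scaffolds, while Klrc2 and Klrd1 do not. Whether this alters their counts was not tested.

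**Figure D2:**
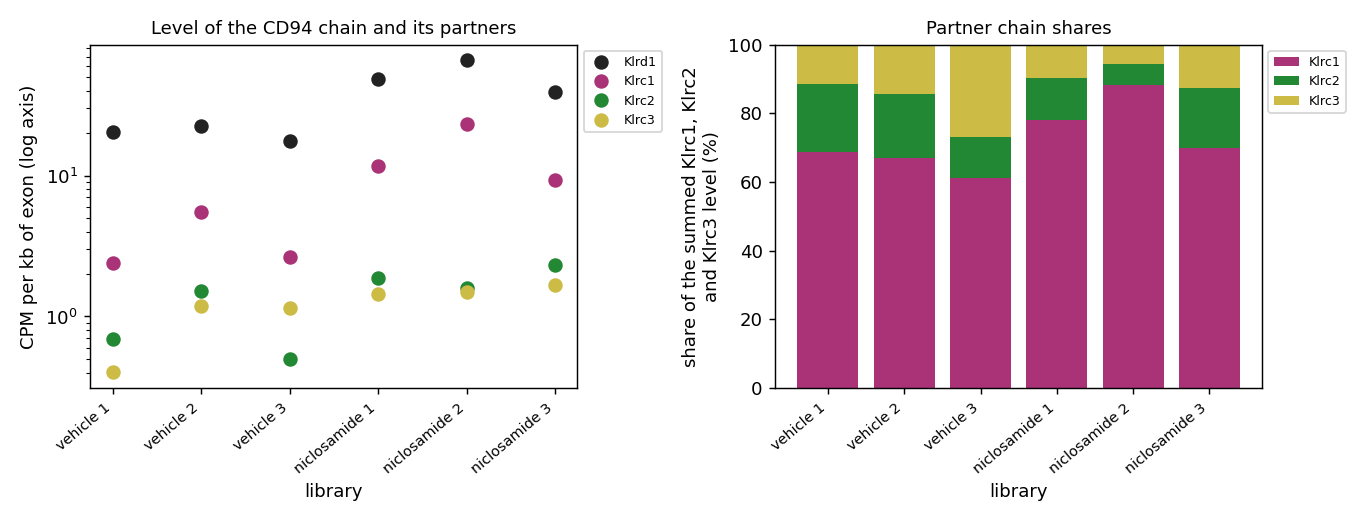
Levels of Klrd1, Klrc1, Klrc2 and Klrc3 in CPM per kilobase of exon and the share of each Klrc gene in their sum, in percent, for the 6 libraries. Klrd1 lies above its partners in every library, and the Klrc1 share runs from 61.3% in vehicle 3 to 88.3% in niclosamide 2.

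Klrk1 encodes NKG2D, an activating receptor for stress-induced ligands that NK cells share with CD8 T cells. It had 23.3, 39.3 and 30.9 CPM with vehicle and 61.4, 75.3 and 57.5 with niclosamide, without overlap (1.05 ± 0.22; adjusted p = 0.521). Klri1, whose product is inhibitory, had 5.58, 8.76 and 5.22 CPM against 9.38, 11.7 and 12.0 (0.76 ± 0.27). Klri2, whose product is activating, had 5.36, 8.02 and 6.26 CPM against 15.9, 15.6 and 16.0 (1.27 ± 0.20; adjusted p = 0.496). The niclosamide values of Klri2 were nearly equal, and those of Klri1 began just above vehicle 2. The log2 ratio of Klri2 to Klri1 was -0.93, -0.998 and -0.61 with vehicle and -0.11, -0.46 and -0.46 with niclosamide, the only 1 of 8 ratios compared whose groups did not overlap. The mean difference was 0.50 (exact permutation p = 0.1, two-sided, the smallest this design allows; adjusted p = 0.8 over the 8 ratios).

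The NKR-P1 receptors bind Clr proteins encoded beside them in the cluster. Klrb1b, which encodes the inhibitory NKR-P1B, had 28.7, 14.3 and 13.2 CPM with vehicle and 54.1, 50.8 and 24.8 with niclosamide. The groups overlapped because niclosamide 3 lay below vehicle 1 (1.21 ± 0.42; adjusted p = 0.652). Klrb1c encodes the activating NKR-P1C, the NK1.1 antigen of C57BL/6 mice, and had 7.29, 13.5 and 10.9 CPM against 14.4, 14.6 and 24.3 (0.75 ± 0.32), a narrow gap without overlap. The activating Klrb1f (NKR-P1F) had 3.54, 6.24 and 6.76 CPM against 8.33, 5.25 and 9.67 (0.49 ± 0.35). Klrb1a (NKR-P1A), also activating, had 1.28, 1.46 and 3.02 CPM against 2.14, 1.30 and 2.92 (0.14 ± 0.48). Both had overlapping groups. The log2 ratio of Klrb1c to Klrb1b spread more within groups, at -2.18, -0.29 and -0.49 with vehicle and -2.12, -2.01 and -0.24 with niclosamide, than between their means (exact permutation p = 1).

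The Ly49 receptors read MHC class I in mice, the part that KIR receptors play in humans. Klra2 stood apart from the others in level. It encodes Ly49B, an inhibitory member known from myeloid cells, and had 27.9, 38.8 and 21.8 CPM with vehicle and 76.9, 93.4 and 46.2 with niclosamide (1.29 ± 0.32; adjusted p = 0.59). Klra17, the gene of Ly49Q, an inhibitory receptor known from plasmacytoid dendritic cells, had 2.48, 1.401 and 2.51 CPM against 2.41, 2.75 and 2.27 (0.22 ± 0.33). The Klra2 groups were apart and the Klra17 groups overlapped. The mean of 6 macrophage markers was 7.09 to 7.88 log2 CPM with vehicle and 7.44 to 8.40 with niclosamide. That of 5 plasmacytoid dendritic cell markers was 2.15 to 2.88 and 1.79 to 3.31. Both overlapped, and their part in these values was not tested.

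The 8 remaining Ly49 genes with a known role were all highest in niclosamide 3. Their median log2 fold change was 0.98, and 0.28 without that library. Klra7, which encodes the inhibitory Ly49G, had 2.44, 7.14 and 5.28 CPM with vehicle and 4.25, 6.64 and 19.5 with niclosamide. Klra4, which encodes the activating Ly49D, had 3.54, 4.81 and 4.84 CPM against 4.15, 4.45 and 13.4. For Klra1, the gene of the inhibitory Ly49A, the values were 1.39, 2.36 and 2.45 against 1.70, 2.84 and 7.46. In each of these genes niclosamide 1 and 2 lay in or near the vehicle range and niclosamide 3 far above it. Their log2 fold changes were 1.03 ± 0.66, 0.74 ± 0.50 and 0.95 ± 0.59, and 0.15, -0.02 and 0.15 without niclosamide 3.

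Klra3, the gene of the inhibitory Ly49C, differed from that pattern. It had 1.64, 2.50 and 2.04 CPM against 3.84, 3.55 and 5.07, without overlap, and a log2 fold change of 1.008 ± 0.30 (0.85 to 1.17 with any 1 library left out). Klra8 encodes Ly49H, an activating receptor for a cytomegalovirus protein, and had 3.76, 5.82 and 2.77 CPM against 5.51, 3.46 and 8.65 (0.51 ± 0.44). The inhibitory Klra9 (Ly49I) had 2.26, 3.96 and 1.73 CPM against 3.09, 3.89 and 7.46 (0.86 ± 0.48). Klra6 (Ly49F), inhibitory too, had 0.620, 1.10 and 0.692 CPM against 0.748, 2.07 and 2.89 (1.24 ± 0.55). These 3 genes had overlapping groups, and without niclosamide 3 their values were 0.13, 0.41 and 0.82. Klra5 (Ly49E, 1.05 ± 0.48) did not overlap but averaged 0.291 and 0.614 CPM.

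Klrg1 encodes an inhibitory receptor for cadherins that marks mature NK cells and effector T cells. It had 4.38, 4.70 and 5.82 CPM with vehicle and 6.12, 6.86 and 8.34 with niclosamide, a narrow gap without overlap (0.52 ± 0.24). Klrg2, far from the cluster, was the only tested member below 0 (-0.38 ± 0.48), at 1.20, 0.522 and 0.472 CPM against 0.680, 0.402 and 0.591, and its value was 0.16 without vehicle 1. The pseudogene Klra13-ps had 2.12, 6.29 and 2.58 CPM against 4.35, 2.32 and 8.34 (0.45 ± 0.61). It overlapped between groups, as did the pseudogene Klra14-ps (0.88 ± 0.55) and Klra10 (0.46 ± 0.68). Of the other members not tested, Klrb1, the gene of NKR-P1G, had 34 counts over all libraries, Klra21 had 18 and Klrb1-ps1 had 1.

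**Figure D3:**
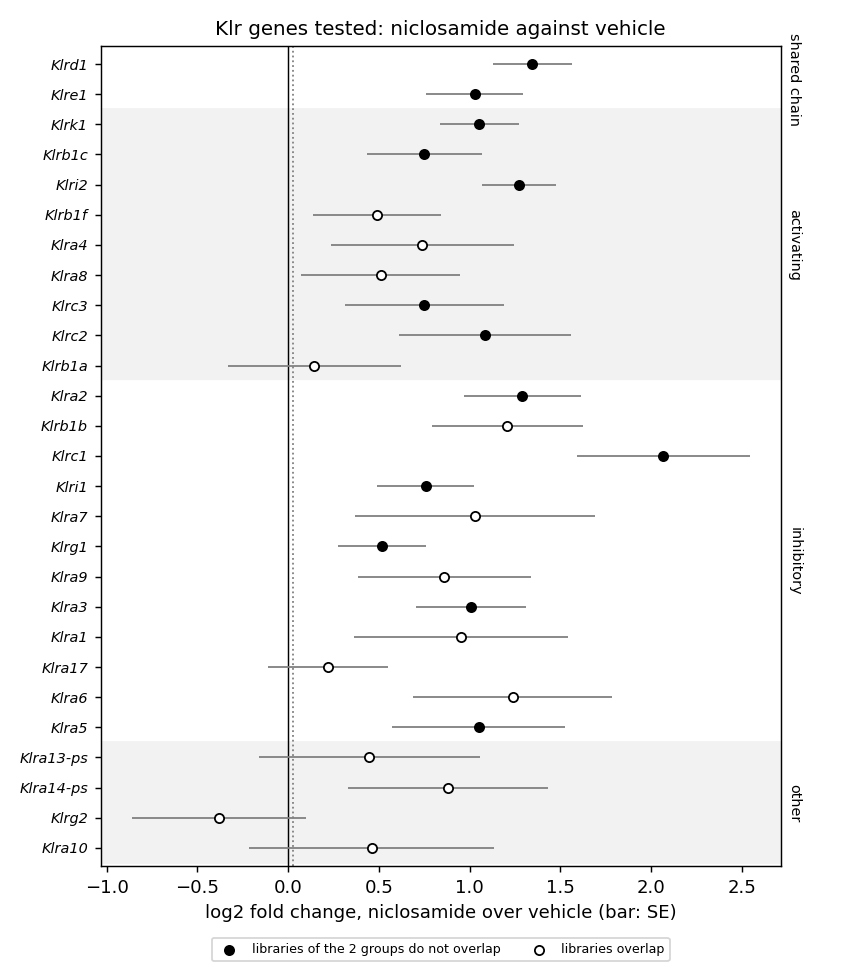
Log2 fold change of niclosamide over vehicle with its SE (edgeR) for each of the 27 tested Klr genes, grouped by role; filled points are genes whose libraries do not overlap between groups, and the dotted line is the median of all tested genes. All points but Klrg2 lie above 0, and Klrc1 lies farthest to the right at 2.07.

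By role, 12 of 12 tested inhibitory, 9 of 9 activating and 2 of 2 shared chain members had a fitted value above 0, against 53.7% of all tested genes. The medians were 1.02, 0.75 and 1.19. Summed per kilobase, the inhibitory members had 38.5 ± 6.06 (SD, n = 3) CPM per kilobase with vehicle and 86.7 ± 12.1 with niclosamide. The activating members had 26.3 ± 6.43 and 47.4 ± 7.95, and the shared chains 23.5 ± 3.26 and 58.0 ± 13.8. The ratio of the inhibitory to the activating sum was 1.89, 1.38 and 1.25 with vehicle and 1.88, 2.32 and 1.41 with niclosamide, so the groups overlapped. Without Klra2 and Klrb1b, left out after their levels were seen, it was 0.836, 0.834 and 0.786 with vehicle and 0.782, 1.17 and 0.973 with niclosamide, below 1 in all libraries but niclosamide 2 and again with overlap. The ratio was not tested further. Without niclosamide 3 the median was 0.74 for the inhibitory members, all 12 above 0, and 0.47 for the activating members, 7 of 9 above 0. Over all 27 it was then 0.47, with 22 above 0.

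In level per kilobase, Klrd1 came first with vehicle (20.1 ± 2.47, SD, n = 3) and with niclosamide (51.1 ± 13.6). Klrk1 (9.14 ± 2.34), Klra2 (8.75 ± 2.55) and Klrb1b (8.25 ± 3.80) followed with vehicle and differed by less than their SDs. The same held with niclosamide, at 19.0 ± 2.74, 21.4 ± 7.11 and 19.0 ± 7.07. Klrc1 was in place 9 with vehicle (3.51 ± 1.73) and in place 5 with niclosamide (14.8 ± 7.45). Together these 5 genes took 65.2%, 58.3% and 55.7% of the Klr counts with vehicle and 72.4%, 76.2% and 52.9% with niclosamide.

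The niclosamide libraries were unlike each other. Niclosamide 2 was the highest of the 6 libraries in Klrd1, Klrk1, Klrc1, Klra2 and Klra17, and niclosamide 3 was the highest in 19 of the 27 members. Vehicle 1, the pool of 4 mice, was the lowest in 17. Ncr1, the gene of the NK receptor NKp46, had 3.61, 10.03 and 6.82 CPM with vehicle and 10.6, 6.71 and 21.2 with niclosamide. It was highest in niclosamide 3, like the Ly49 genes with a known role other than Klra2 and Klra17. Of the 24 NK identity genes, however, 7 were highest in niclosamide 3, 11 in niclosamide 2 and 5 in niclosamide 1. Cd8a, a gene of CD8 T cells, had 31.5, 43.7 and 18.1 CPM against 84.6, 102 and 46.4, highest in niclosamide 2 like Klrd1, Klrk1 and Klrc1. Of the 11 T cell markers 4 were highest there and 7 in niclosamide 1. The log2 ratio of Klrd1 to Ncr1 was 3.08, 1.75 and 1.94 with vehicle and 2.77, 3.88 and 1.47 with niclosamide (exact permutation p = 0.7). That of Klrk1 to Cd3e, a T cell gene, was -1.80, -0.32 and -0.84 and -0.94, -0.64 and -0.22 (exact permutation p = 0.6). Both ratios overlapped between groups.

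**Figure D4:**
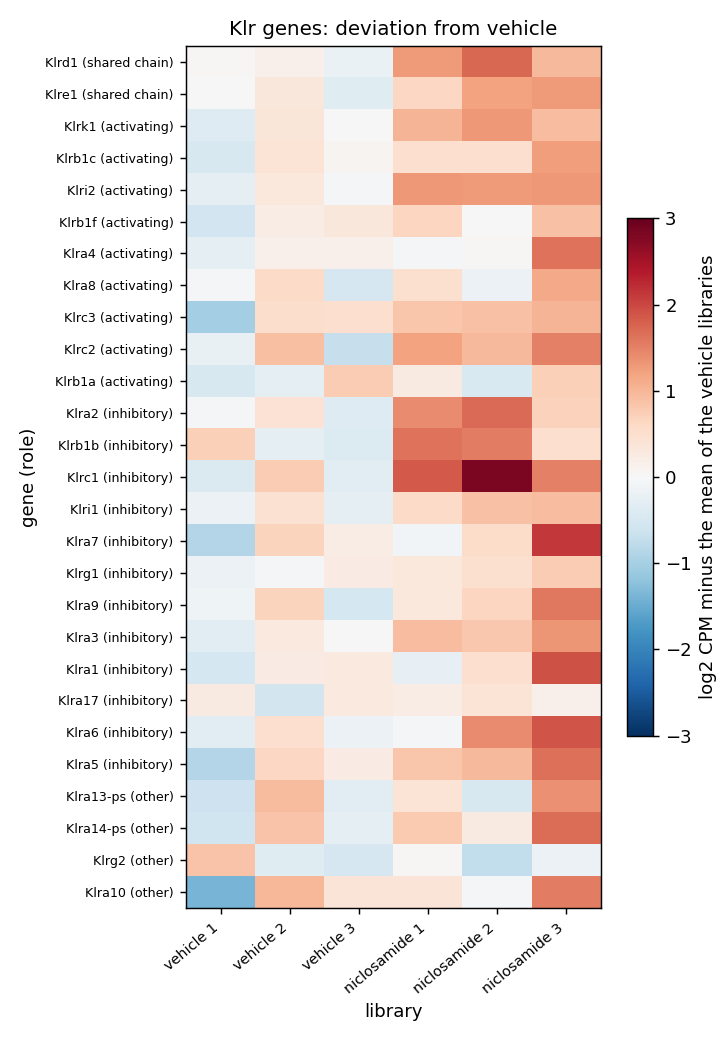
Log2 CPM of each tested Klr gene (rows, with the role) in each library (columns) minus the mean of the vehicle libraries of that gene; red is above and blue below that mean. Klrc1 is most red in niclosamide 2, and Klra7, Klra4 and Klra1 are most red in niclosamide 3.

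At an unadjusted p under 0.05 (edgeR), 9 of 27 members were higher and 0 lower, against 3.37% and 3.55% of all tested genes. The 9 were Klri2, Klrd1, Klrk1, Klrc1, Klra2, Klre1, Klra3, Klrb1b and Klri1. With any 1 library left out, 7 to 12 members were higher at that level and 0 lower. The share of all tested genes that were higher then ran from 1.88% to 5.52%. Adjusted p values of the 27 ran from 0.496 to 0.981 by edgeR. DESeq2 called 6 members higher (Klri2, Klrd1, Klrc1, Klrk1, Klra2 and Klre1, with Benjamini-Hochberg adjusted p from 7.24e-06 to 0.0439) and 0 lower. Of all genes it called 0.492% higher and 0.67% lower, while limma-voom called 0 members and 0% of all genes. The members are not independent, since they share cells and, in part, reads.

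The receptors signal through adaptors that other leukocytes also use. Of 20 tested adaptor and signalling genes 17 had a fitted value above 0 (median 0.35), against 53.7% of all tested genes. By edgeR 0 passed the threshold and 6 were higher at an unadjusted p under 0.05, against 3.37% of all tested genes. Those with the smallest p were Lck, a kinase of T cell receptor signalling (0.64 ± 0.14), Sh2d1a, the adaptor SAP (0.83 ± 0.21), Sh2d2a (0.99 ± 0.26), Cd247, the CD3 zeta chain (0.88 ± 0.28), and Zap70, a kinase that binds it (0.70 ± 0.24). Hcst, which encodes DAP10, the partner of NKG2D, had 7.11, 5.93 and 7.39 CPM against 10.7, 10.8 and 6.97, with overlap (0.48 ± 0.25). Tyrobp, which encodes DAP12, had 260.1, 134 and 172 CPM against 275, 269 and 174, also with overlap (0.34 ± 0.30).

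Of 16 tested ligand genes 12 had a fitted value above 0 (median 0.33), against 53.7% of all tested genes. By edgeR 0 passed the threshold and 2 were higher at an unadjusted p under 0.05, against 3.37% of all tested genes. B2m, the light chain of MHC class I, had 2937, 2648 and 2587 CPM against 3875, 4911 and 3596, without overlap (0.60 ± 0.21). H2-T23 encodes Qa-1, the ligand of the CD94 and NKG2 receptors, and had 290.0, 224 and 230.3 CPM against 309, 521 and 282, with overlap (0.58 ± 0.27). Its highest library, niclosamide 2, was also that of Klrc1, and likewise that of B2m, H2-K1 and H2-D1. The class I genes H2-K1 (0.44 ± 0.23) and H2-D1 (0.42 ± 0.24) had smaller values. Raet1d, which encodes a ligand of NKG2D, averaged 1.56 and 2.70 CPM (0.80 ± 0.36). The other tested NKG2D ligand genes overlapped between groups, at 0.40 ± 0.35 for Ulbp1, 0.16 ± 0.33 for Raet1e and -0.52 ± 0.59 for H60c on the log2 scale. Among the Clr genes, Clec2d, the ligand of NKR-P1B, averaged 159.5 and 164 CPM (0.04 ± 0.19), and Clec2g, a ligand of NKR-P1F, 0.572 and 1.54 (1.43 ± 0.48).

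Most markers of NK and T cells outside the family were higher with niclosamide as well, though none passed the threshold by edgeR. Of 24 NK identity genes 22 had a fitted value above 0 (median 0.89), against 53.7% of all tested genes. By edgeR 0 passed the threshold and 14 were higher at an unadjusted p under 0.05, against 3.37% of all tested genes. DESeq2 called 8 of the 24 higher and 0 lower, against 0.492% and 0.67% of all genes. The mean of the 24 was 3.28 to 3.65 log2 CPM with vehicle and 4.06 to 4.49 with niclosamide. The smallest p values were those of the activating receptor Cd226 (1.26 ± 0.21), the death ligand Fasl (1.24 ± 0.23), the cytokine receptor chain Il2rb (0.88 ± 0.17), the chemokine receptor Cxcr6 (1.39 ± 0.33) and the T-box factor Tbx21 (0.90 ± 0.22). Eomes, a T-box factor of conventional NK cells, had 8.13, 8.30 and 5.34 CPM against 6.97, 6.30 and 12.8, with overlap (0.26 ± 0.35). Ncr1 overlapped as well (0.91 ± 0.53), and neither Eomes nor Ncr1 was among the 14. The 2 NK identity genes below 0 were Itga1 (-0.38 ± 0.21) and Itga2 (-0.27 ± 0.64), both with overlap. All 11 T cell markers had a fitted value above 0 (median 0.79), against 53.7% of all tested genes. At an unadjusted p under 0.05 (edgeR) 8 were higher, against 3.37% of all tested genes, and DESeq2 called 1 higher and 0 lower. The T cell list mean was 4.03 to 4.11 log2 CPM with vehicle and 4.47 to 5.24 with niclosamide. The summed level was 216 to 245 CPM with vehicle and 295 to 531 with niclosamide. The list means of the other leukocyte markers overlapped between groups, at 1.81 to 4.30 and 2.98 to 3.98 log2 CPM for B cells, 4.21 to 5.67 and 3.60 to 4.50 for neutrophils and 7.76 to 8.31 and 8.10 to 8.63 for genes of all leukocytes. All 6 neutrophil markers had a fitted value below 0 (median -1.18), while 53.7% of all tested genes lay above 0. At an unadjusted p under 0.05 (edgeR) 3 were lower, against 3.55% of all tested genes. The chemokine receptor Cxcr2 (-1.96 ± 0.44) and the growth factor receptor Csf3r (-0.82 ± 0.21) had niclosamide libraries all below vehicle, and DESeq2 called Cxcr2 lower (adjusted p = 0.00348). Klrd1, Klrk1, Klrc1 and Klrg1 are also expressed by activated CD8 T cells, as are NK identity genes such as Fasl and Cxcr6. The part of each cell type in the Klr values and in the NK identity list was not tested.

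Of 45 other gene symbols that start inside the cluster, 20 were tested. In 17 of these the fitted value was above 0 (median 0.42), against 53.7% of all tested genes. By edgeR 0 passed the threshold and 5 were higher at an unadjusted p under 0.05, against 3.37% of all tested genes. Clec12a, a lectin receptor of myeloid cells, had 78.3, 71.2 and 69.6 CPM against 173, 149 and 93.2 (0.92 ± 0.23). Clec1b averaged 0.507 and 2.51 CPM (2.30 ± 0.62), and Clec9a, a receptor of cross-presenting dendritic cells, had a log2 fold change of 1.04 ± 0.40. Clec12b was the only neighbour whose niclosamide libraries all lay below the vehicle libraries (-0.997 ± 0.46), at 0.438, 0.714 and 0.377 CPM against 0.204, 0.185 and 0.373.

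**Figure D5:**
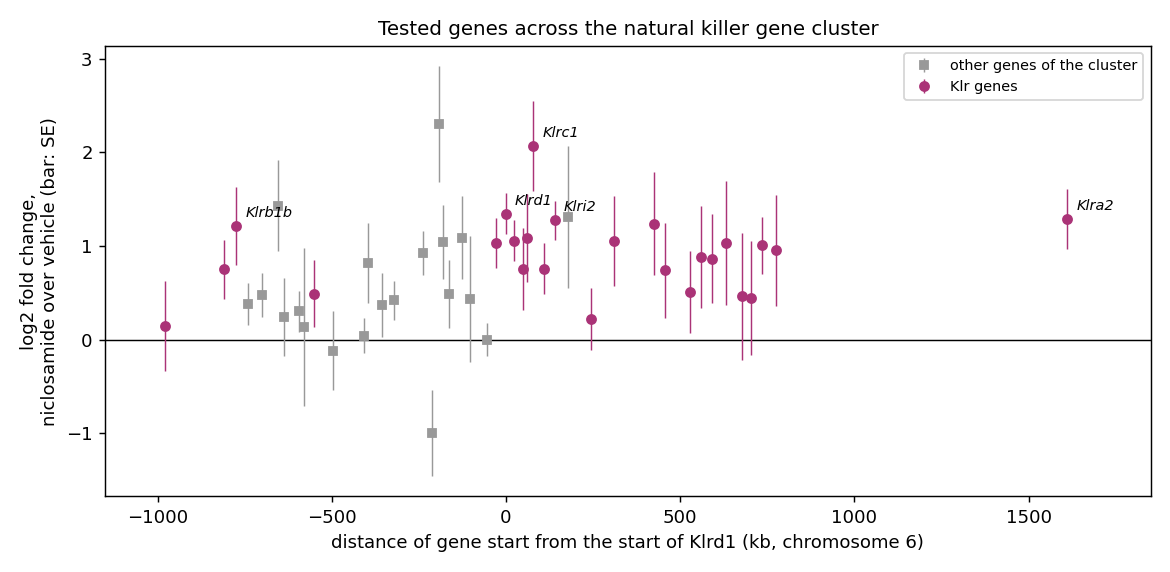
Log2 fold change (niclosamide over vehicle, bar SE, edgeR) of the tested genes across the NK gene complex on chromosome 6, plotted against the distance of the gene start from that of Klrd1 in kilobases; circles are Klr genes and grey squares the other genes. All tested Klr genes of the cluster lie above 0, and the highest of the other genes is Clec1b at 2.30.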

How the data were processed

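RNA of 6 lesion samples was sequenced with a stranded kit, per the labels' protocols. The deposited values are raw read counts per gene symbol, made by the authors with featureCounts (Subread 1.4.6-p4) on STAR alignments over exons of the GRCm38.p3 annotation, reverse-stranded, with no option set for multiply aligned or overlapping reads, per the file headers. The submitters' processing notes also name Trimmomatic 0.33 and STAR 2.4.2a. Counts were tested here with edgeR 4.0.16 in R 4.3.3: filterByExpr (minimum count 10, minimum total 15), TMM scaling, a robust quasi-likelihood fit on group, and Benjamini-Hochberg adjustment over all tested genes. SEs were computed from the log2 fold change and its F statistic. List means of log2 CPM and log2 ratios used a prior count of 2. DESeq2 1.42.0 and limma 3.58.1 (voom) were alternatives. On simulated data the edgeR procedure had only to recover the fold changes, with no condition on the genes called. Floors (3 counts, the limit that a count of 0 allows) cover counting error only.

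The members and lists were chosen with earlier results of these data known. Any tested member could be named; from each other list, the 5 genes with the smallest p (4 for cluster neighbours) and a fixed set. Clec2d, Ulbp1, Raet1e, H60c, Clec12b, Itga1, Itga2, Rn7sk and Rn18s-rs5 were named after their values were seen.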

Additional observations from a re-analysis of the deposited data

How the results depend on the processing

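Besides the reported fit, 14 others were run: RLE and upper-quartile scaling, DESeq2, limma-voom alone or with quality weights per library, no filter, a stricter filter, the replicate block, and each library left out. DESeq2 called 6 Klr members, 12 genes of the other lists and 189 genes in all. The other 13 fits called 0 Klr members, and without a filter 1 gene in all was called; at an adjusted p under 0.10 the reported fit called 0. With a library left out the median log2 fold change of the members ran from 0.47 (without niclosamide 3) to 1.08 (without vehicle 2). In 21 of 27 members the direction held in every fit. The exceptions, with a library left out, were Klrb1a (-0.15 to 0.63, and -0.048 by limma-voom with quality weights), Klrg2 (-0.62 to 0.16), Klra17 (-0.013 to 0.36), Klra13-ps (-0.12 to 1.08), Klra4 (-0.02 to 1.02) and Klra10 (-0.13 to 0.99). The difference in log2 ratio ran from -0.135 (without niclosamide 2) to 1.07 for Klrd1 to Ncr1, and from -0.024 (without vehicle 1) to 0.72 for Klrk1 to Cd3e. The cause was not tested. With the replicate block 0 members were called and their median was 0.86. Libraries with the same number shared only that number: their deviations from the group means correlated at -0.085, -0.087 and 0.266.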
